A study of Mus musculus with 6 samples.

Results

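The genes described here encode proteins of the megakaryocyte and platelet surface: Itga2b, Gp5, Gp6, Gp9, F2r, F2rl2, Cd9 and Clec1b, with Vwf as an adhesive ligand of that surface. Members were all probe sets (the groups of array probes summarised as 1 value) that the platform annotation assigns to exactly 1 of these 9 gene symbols. That gave 8 probe sets for 8 of the 9 genes, among 34760 probe sets and 19937 genes in all, and Gp6 was not analysed here. The study compared 3 female C57BL/6 mice labelled Cebpa flox/flox with 3 labelled Cebpa flox/flox;Mx1Cre, 1 Affymetrix array each. It asks how the transcriptome of pre-granulocyte-macrophage progenitors (PreGMs) differs when Cebpa, which encodes the myeloid transcription factor C/EBPα, is deleted. All 6 mice carried the floxed alleles and had received pIC, an inducer of interferon, 18 days before the marrow was taken. The Mx1 promoter that drives Cre responds to interferon in many cell types, so deletion is not limited to PreGMs. The labels give no ages.

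PreGMs were sorted as cells with Kit and without lineage antigens, Sca1, CD150, CD41, FcγRII or endoglin. CD41 is the product of Itga2b, so 1 of the genes described here encodes an antigen that the sort excluded. Values are log2 expression on the RMA scale, on which a difference of 1 is a doubling. Over all genes, which are not independent replicates, the correlation of 2 arrays was 0.992 to 0.995 under one label and 0.984 to 0.990 across labels. Cebpa was at 6.71 to 6.93 in the flox/flox arrays and 8.71 to 9.31 in those labelled Mx1Cre, which goes against the labels. The position of its probes relative to the deleted part is not known here. Each direction given is therefore that of the deposited labels, and an exchange of labels would turn it.

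Megakaryocytes carry on their surface the receptors by which platelets later stick and respond. The GPIb-IX-V complex, which includes the products of Gp5 and Gp9, holds von Willebrand factor under flow. The integrin αIIbβ3, of which Itga2b encodes the α chain, binds fibrinogen and von Willebrand factor. GPVI (Gp6) and CLEC2 (Clec1b) signal through Syk on binding collagen and podoplanin. The protease-activated receptors respond to thrombin. F2r encodes the first of these (PAR1), F2rl2 encodes PAR3, which in mouse platelets acts as a cofactor, and F2rl3 encodes PAR4. Mouse platelets respond to thrombin through PAR4 with PAR3. PAR1 is among the receptors that human platelets use. CD9 is a tetraspanin, a membrane organiser abundant on platelets and also found on other blood cells. In marrow several of these genes are already transcribed in stem cells and in progenitors with megakaryocyte potential.

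GATA and ETS factors bind the promoters of many megakaryocyte genes. The bases before the start site are shown for the 3 genes that passed the test below and for a partner gene of 2 of them. They show which promoters hold the core letters of those factors. Sequences are the 250 bases upstream of the start, 5′ to 3′ on the gene's strand, from RefSeq (GRCm38.p6). Capitals mark GATAA, the GATA core, and GGAAG, an ETS core, on either strand (TTATC and CTTCC on the reverse).
Gp5: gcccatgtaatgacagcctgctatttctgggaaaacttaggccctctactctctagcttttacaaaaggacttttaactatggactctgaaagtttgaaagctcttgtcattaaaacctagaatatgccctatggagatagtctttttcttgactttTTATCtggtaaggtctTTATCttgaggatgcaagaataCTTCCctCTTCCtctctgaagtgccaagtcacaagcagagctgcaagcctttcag
Gp9: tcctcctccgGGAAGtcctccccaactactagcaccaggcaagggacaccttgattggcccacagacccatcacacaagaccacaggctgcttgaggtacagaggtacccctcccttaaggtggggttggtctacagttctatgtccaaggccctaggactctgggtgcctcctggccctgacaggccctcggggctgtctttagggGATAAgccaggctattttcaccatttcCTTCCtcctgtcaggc
F2r: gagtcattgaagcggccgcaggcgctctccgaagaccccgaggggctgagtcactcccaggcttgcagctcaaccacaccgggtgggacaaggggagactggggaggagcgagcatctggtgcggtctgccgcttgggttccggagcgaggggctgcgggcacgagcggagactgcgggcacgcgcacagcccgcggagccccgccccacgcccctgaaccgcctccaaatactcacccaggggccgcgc
F2rl2: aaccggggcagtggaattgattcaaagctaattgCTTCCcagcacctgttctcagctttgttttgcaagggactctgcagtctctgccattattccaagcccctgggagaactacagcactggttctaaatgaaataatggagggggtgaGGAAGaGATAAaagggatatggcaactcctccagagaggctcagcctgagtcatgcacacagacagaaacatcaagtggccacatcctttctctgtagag
Cd9: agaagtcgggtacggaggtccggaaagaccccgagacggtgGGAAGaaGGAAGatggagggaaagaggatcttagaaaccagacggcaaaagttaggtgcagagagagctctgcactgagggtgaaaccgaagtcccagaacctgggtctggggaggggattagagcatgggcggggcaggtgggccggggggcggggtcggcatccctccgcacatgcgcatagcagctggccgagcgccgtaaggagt
The windows are chr16:30310782-30311031 (minus strand) for Gp5, chr6:87777820-87778069 (plus) for Gp9, chr13:95618467-95618716 (minus) for F2r, chr13:95696670-95696919 (plus) for F2rl2 and chr6:125494761-125495010 (minus) for Cd9.

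Of the 8 genes with an entry in the promoter table (all but Vwf), GATAA was found in 5 and GGAAG in 5, with both in Gp5, Gp9 and F2rl2. Among all 32851 windows of the same length, 22.6% held GATAA, 64.1% held GGAAG and 13.2% held both. TTNNGNAA, letters of a C/EBP site, was found in 3 of the 8 (Gp5, Gp6 and F2rl2) and in 36.8% of all windows. No match to one motif overlapped a match to another in these 8. The Gp5 window held both GATAA matches with their first bases at -93 and -77 from the start, and 2 GGAAG matches at -55 and -48. That of Gp9 held GATAA at -43. The F2r window held none of the 3 motifs, and 70.8% of its bases were G or C, against 40.8% for Gp5. The 3 genes that passed the test thus had unlike windows: Gp5 with both cores, Cd9 with GGAAG alone and F2r with neither.

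Of the 8 genes measured, Gp5, F2r and Cd9 fell in the arrays labelled Mx1Cre, none rose, and 5 did not pass (limma, adjusted p under 0.05 over all 19937 genes). Over all genes 2.28% passed as lower and 2.63% as higher, 4.91% in all. At an unadjusted p under 0.05, 4 of the 8 were lower and 0 higher, against 8.12% lower and 8.32% higher over all genes. The median difference of the 8 was -0.29 log2 units, against -0.01 over all genes. Differences ran from -0.95 for Gp5 to 0.08 for Clec1b, and 7 of 8 were below 0, as were 53.4% of all genes. All 3 Mx1Cre values lay below all 3 flox/flox values for 5 of the 8, and for 11.0% of all genes. In sorted cell samples such as these, fewer cells of a type and less RNA per cell cannot be told apart.

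**Figure D1:**
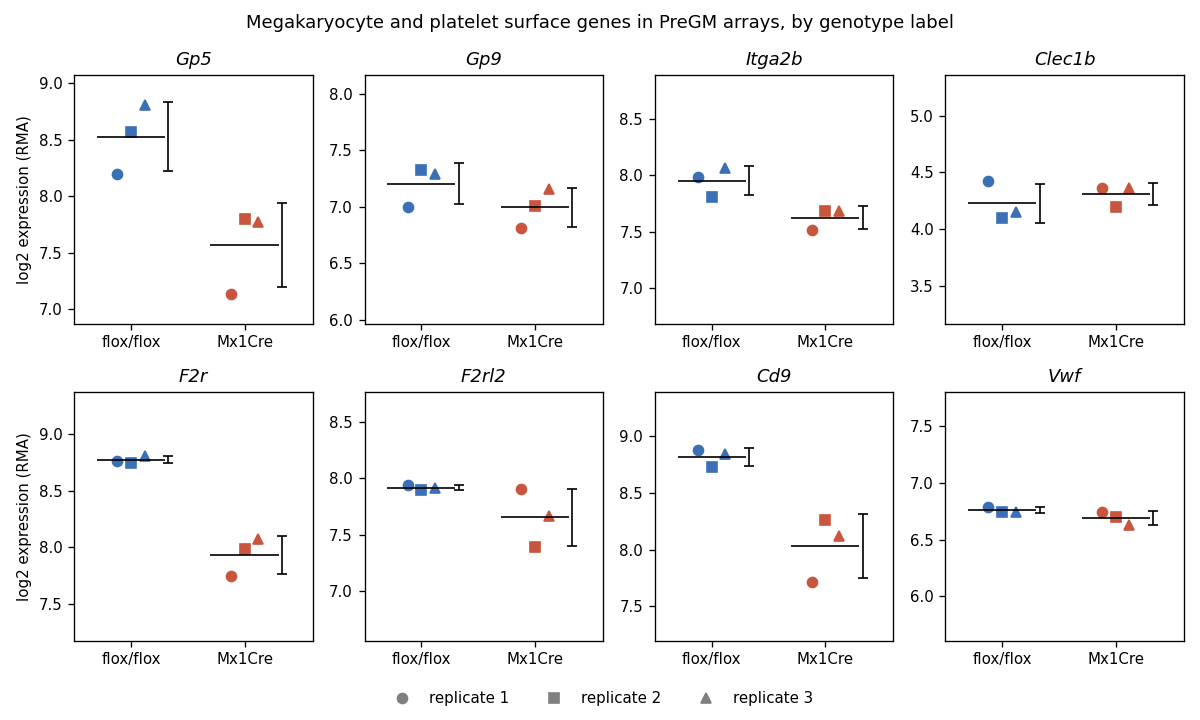
Log2 expression (vertical axis, RMA scale, the same span in each panel) of the 8 measured genes in the 3 flox/flox and 3 Mx1Cre arrays. Symbols are replicates, horizontal lines group means and bars the SD; the groups are far apart for Gp5, F2r and Cd9, where Mx1Cre replicate 1 is the lowest array, and nearly level for Vwf and Clec1b.

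Among the adhesion receptors, Gp5 showed the largest difference of the set. In the order of replicates 1, 2 and 3, its level was 8.20, 8.57 and 8.81 in the flox/flox arrays and 7.14, 7.80 and 7.77 in the Mx1Cre arrays. The groups did not overlap, and Mx1Cre replicate 1 was the lowest array by a wide margin. Gp5 encodes glycoprotein V, the thrombin-cleaved subunit of the GPIb-IX-V complex. Gp5 fell 1.94-fold in the Mx1Cre arrays, a difference of -0.95 ± 0.19 log2 units (SE, n = 3 each, limma adjusted p = 0.0203). This call was lost without flox/flox replicate 2 (adjusted p = 0.0635) or flox/flox replicate 3 (adjusted p = 0.0818), and over all alternatives the adjusted p ran from 0.00152 to 0.156 (limma). The lowest value came with the replicate number as a block, and the highest with every probe set in the fit, named or not.

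Gp9, the small subunit of the same complex, read 6.996, 7.32 and 7.29 in the flox/flox arrays and 6.81, 7.01 and 7.16 in the Mx1Cre arrays. The groups overlapped. Its difference of -0.21 log2 units had a 95% interval of -0.48 to 0.06 and did not pass (limma adjusted p = 0.464). Within each array, Gp5 minus Gp9 was 1.20, 1.24 and 1.52 in the flox/flox arrays and 0.33, 0.78 and 0.62 in the Mx1Cre arrays. The groups did not overlap in this difference, with means of 1.32 ± 0.17 and 0.58 ± 0.23 (SD, n = 3 each). Gp5 alone did not overlap either, so this difference in part restates that of Gp5. The exact permutation p (two-sided) was 0.1, the least that this number of arrays can give, or 0.133 adjusted over the 4 pairs of genes so compared. Of the other subunits of the complex, Gp1ba and Gp1bb were not analysed here, the probe set listed for Gp1bb also naming Septin5.

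Itga2b read 7.98, 7.81 and 8.06 in the flox/flox arrays and 7.51, 7.68 and 7.68 in the Mx1Cre arrays. Every Mx1Cre array was thus below every flox/flox array, by a gap of 0.13 log2 units. The difference of -0.33 ± 0.10 log2 units (SE) did not pass (limma adjusted p = 0.108, 95% interval -0.55 to -0.10, which is not adjusted for the number of genes). Its partner Itgb3, the β chain of the fibrinogen receptor, read 7.43, 6.93 and 7.16 against 7.06, 7.06 and 7.12 and did not pass either (-0.10 log2 units). Itga2b minus Itgb3 overlapped between the groups, with means of 0.78 and 0.55 (exact two-sided permutation p = 0.3). Of the other single antigens that the sort excluded, those encoded by Slamf1 (CD150) and Eng (endoglin) differed by -0.17 and -0.05 log2 units and did not pass. Fcgr2b, which encodes FcγRII, rose 1.34-fold (0.43 log2 units, limma adjusted p = 0.0410). It passed under 10 of 17 alternatives, with adjusted p-values from 0.0210 to 0.166, and was lost without any 1 array other than Mx1Cre replicate 1. Ly6a (Sca1) was not analysed here.

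Clec1b, the podoplanin receptor, read 4.43, 4.10 and 4.15 in the flox/flox arrays and 4.36, 4.20 and 4.37 in the Mx1Cre arrays. The groups overlapped. The difference was 0.08 log2 units (95% interval -0.16 to 0.32, limma adjusted p = 0.815). Its mean over all arrays, 4.27, lay below the lower quartile of gene means (5.63), a range in which RMA tends to understate differences, and no detection call was used here. Clec1b lies in a cluster of lectin genes, within the RefSeq span of Clec12b and next to Clec9a. Of those neighbours, chosen for their position and not by the rule for named genes, Clec9a rose by 1.14 log2 units (limma adjusted p = 0.0131), whereas Clec12b differed by -0.07.

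Among the receptors for thrombin, F2r fell and F2rl2 and F2rl3 did not pass. F2r read 8.77, 8.75 and 8.81 in the flox/flox arrays and 7.74, 7.99 and 8.07 in the Mx1Cre arrays. The 3 flox/flox arrays lay within 0.06 log2 units of each other, and the groups were 0.68 log2 units apart at their nearest. F2r was 1.79-fold lower in the Mx1Cre arrays, at -0.84 ± 0.10 log2 units (SE, n = 3 each, limma adjusted p = 0.00124). It passed under all 17 alternatives tried, with adjusted p-values from 0.000706 to 0.0270 (limma). With every probe set in the fit, where 0.517% of genes passed as lower, F2r was the only 1 of the 8 to pass.

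F2rl2 read 7.94, 7.90 and 7.92 in the flox/flox arrays and 7.90, 7.39 and 7.67 in the Mx1Cre arrays. The flox/flox arrays were nearly equal, and 1 Mx1Cre array, replicate 1, was at their level while the other 2 were below it. The difference of -0.26 log2 units did not pass (limma adjusted p = 0.321, 95% interval -0.54 to 0.01). Mx1Cre replicate 1 was thus the highest of its group for F2rl2, although it was the lowest for F2r. F2rl3 differed by 0.05 log2 units (95% interval -0.25 to 0.35).

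F2r and F2rl2 are close neighbours on chromosome 13, where the RefSeq span of Iqgap2, a scaffold protein gene, starts beside F2r and takes in F2rl2. Iqgap2 differed by 0.02 log2 units and did not pass. F2rl1, on the other side of F2r, was not analysed here. Within each array F2r minus F2rl2 was 0.83, 0.85 and 0.89 in the flox/flox arrays and -0.16, 0.59 and 0.40 in the Mx1Cre arrays, with no overlap (exact two-sided permutation p = 0.1, or 0.133 adjusted over 4 pairs). F2r minus F2rl3 did not overlap either, with means of 2.17 ± 0.22 and 1.28 ± 0.25 (SD, n = 3 each) and the same exact permutation p. Both differences in part restate that of F2r, which did not overlap on its own.

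**Figure D2:**
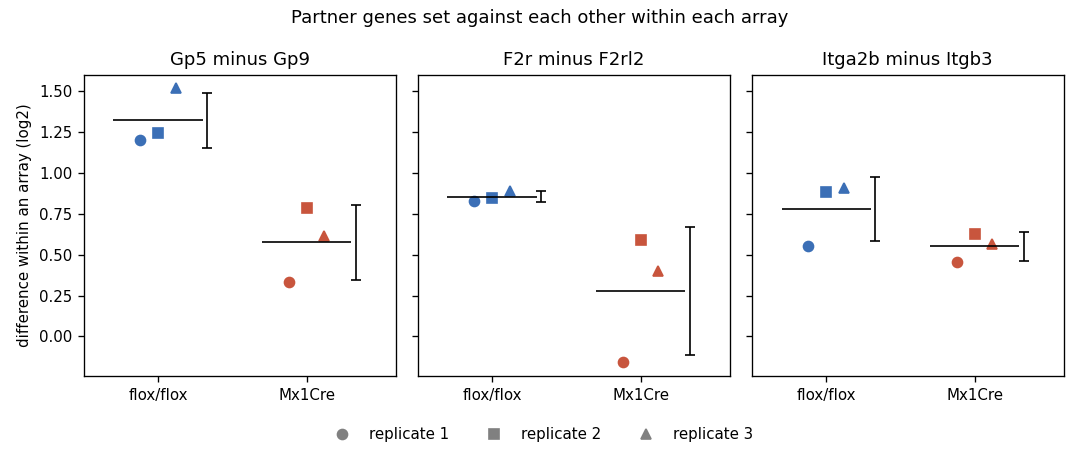
Difference in log2 expression between partner genes within each array (vertical axis), for the 3 flox/flox and 3 Mx1Cre arrays; symbols are replicates, lines group means and bars the SD. Gp5 minus Gp9 and F2r minus F2rl2 do not overlap between the labels, with Mx1Cre replicate 1 lowest in both, while Itga2b minus Itgb3 overlaps.

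Cd9 read 8.88, 8.73 and 8.84 in the flox/flox arrays and 7.71, 8.26 and 8.12 in the Mx1Cre arrays. The groups did not overlap, and Mx1Cre replicate 1 was again the lowest. Cd9 was 1.73-fold lower in the Mx1Cre arrays, at -0.79 ± 0.13 log2 units (SE, n = 3 each, limma adjusted p = 0.00819). It no longer passed with every probe set in the fit (limma adjusted p = 0.0879, the highest over the alternatives, the lowest being 0.00293). Without Mx1Cre replicate 1 the difference was -0.63, and it passed.

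Vwf, which encodes the adhesive ligand of the GPIb-IX-V complex and is made by megakaryocytes and endothelial cells, was nearly level. It read 6.79, 6.75 and 6.75 in the flox/flox arrays and 6.74, 6.70 and 6.63 in the Mx1Cre arrays. The groups did not overlap, but the gap between them was only 0.0035 log2 units. The difference of -0.07 log2 units did not pass (limma adjusted p = 0.785, 95% interval -0.26 to 0.11). On chromosome 6 Vwf is the immediate neighbour of Cd9, so the gene that fell and the gene that did not pass lie side by side. Of 12 endothelial marker genes, 0 passed in either direction (limma), with 4 lower and 1 higher at an unadjusted p under 0.05 (8.12% and 8.32% of all genes). The brightest of them, Pecam1, a junction protein also on platelets, differed by -0.32 log2 units.

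**Figure D3:**
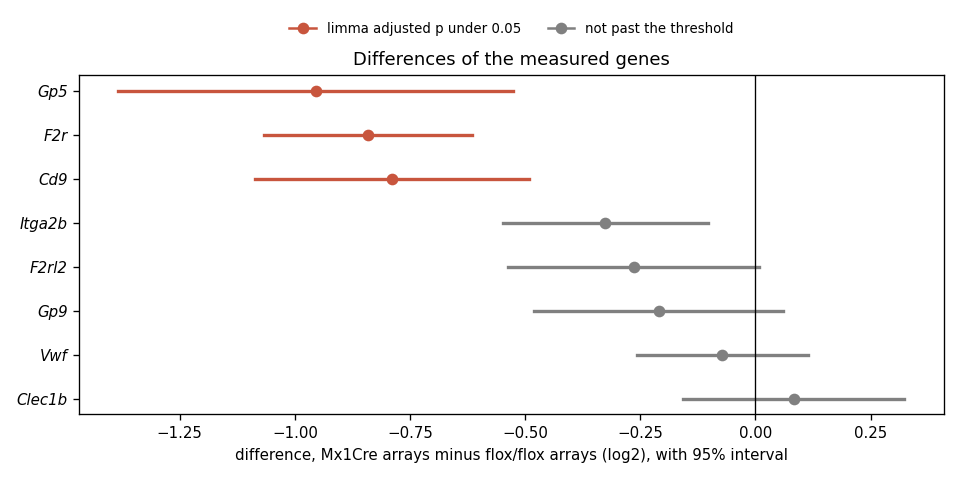
Difference in log2 expression, Mx1Cre arrays minus flox/flox arrays (horizontal axis), with limma's 95% interval for each of the 8 measured genes; red marks an adjusted p under 0.05. Gp5, F2r and Cd9 lie between -0.95 and -0.79, and the other 5 between -0.33 and 0.08.

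The intervals of Gp5 (-1.38 to -0.53), F2r (-1.07 to -0.61) and Cd9 (-1.09 to -0.49) overlapped widely, so their order is not settled. Mx1Cre replicate 1 was the lowest of its group for 5 of the 8 genes (Gp5, Gp9, Itga2b, F2r and Cd9). Replicate 2 was lowest for F2rl2 and Clec1b, and replicate 3 for Vwf. The SD was larger in the Mx1Cre arrays for 5 of 8 genes and for 53.0% of all genes. The contrast was widest for F2rl2 (0.019 against 0.25) and F2r (0.031 against 0.17).

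Over the 6 arrays, the genes most like each of the 3 that fell were found from the smallest root-mean-square difference of centred log2 values. For F2r they were Plscr1 (phospholipid scramblase), Kdm7a (a histone demethylase) and Cpa3 (mast cell carboxypeptidase), at 0.057, 0.060 and 0.063 log2 units. For Cd9 they were Ddx58, which encodes the RNA sensor RIG-I, Bpgm, an enzyme of red cell metabolism, and Sipa1l1, at 0.053, 0.057 and 0.059. Those of Gp5 were less close, Gna14 (a G protein α subunit), Isg20 (an interferon-induced exonuclease) and Chn2 at 0.14, 0.15 and 0.17. Among the pairs of surface genes that hold at least 1 of these 3, F2r and Cd9 were the closest, at 0.10, and Gp5 was 0.21 from F2r and 0.22 from Cd9. Over all genes Cd9 was at rank 16 from F2r and F2r at rank 17 from Cd9, while Gp5 was at rank 251 from F2r and 291 from Cd9. Ranks differ by direction: from Gp5, F2r was at rank 22 and Cd9 at rank 26. The group difference weighs heavily in this measure, so genes that fell by similar amounts lie close whatever else they share.

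Other genes of the pathway were taken from 6 lists of platelet genes, of which 106 genes were measured, 98 of them not among the 8. Like the 8 genes and the marker lists below, these lists were chosen with earlier results of these data known. Their counts beside the shares of all genes are therefore descriptive and no independent test. Of those 98, 13 fell, 5 rose and 80 did not pass, with a median of -0.07 log2 units. Over all genes 2.28% passed as lower and 2.63% as higher (limma). At an unadjusted p under 0.05, 28 of the 98 were lower and 10 higher (8.12% and 8.32% of all genes). Counting all 106, 16 fell and 5 rose. Without flox/flox replicate 3 the counts were 9 and 3, without flox/flox replicate 2 they were 15 and 3, and without Mx1Cre replicate 3 they were 11 and 3. With every probe set in the fit they were 5 and 3.

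Of 12 adhesion receptor genes 4 fell and 0 rose (limma), and at an unadjusted p under 0.05 5 were lower and 0 higher (8.12% and 8.32% of all genes). Beside Gp5 they were Itga6 (1.41-fold), a laminin receptor chain, Itga2 (1.32-fold), a collagen receptor chain, and Cd36 (1.38-fold), a scavenger receptor that also binds thrombospondin. Cd36 was dim, at 4.77 and 4.30, and passed narrowly (limma adjusted p = 0.0493). Itga6 read 9.78, 9.70 and 9.88 against 9.25, 9.25 and 9.38, with no overlap. Itgb1, the β chain that pairs with both of these integrin chains, differed by 0.03 log2 units, and Fcer1g, the signalling partner of GPVI, by -0.04.

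Of 10 receptors for soluble agonists 2 fell and 0 rose (limma), and at an unadjusted p under 0.05 2 were lower and 0 higher (8.12% and 8.32% of all genes). F2r was 1 of the 2 that fell. Of the 8 receptors in this list that are outside the surface gene set, 1 fell, with a median difference of 0.006 log2 units. That gene, P2rx1, the ATP-gated channel of platelets, fell 1.83-fold, from 8.08, 7.88 and 8.09 to 6.91, 7.38 and 7.16 (limma adjusted p = 0.0034). The groups did not overlap, and Mx1Cre replicate 1 was the lowest array, as for F2r. The ADP receptor genes P2ry1 and P2ry12 differed by -0.03 and -0.20 log2 units and did not pass.

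Of 15 adhesive ligand and granule genes 1 fell and 1 rose (limma). At an unadjusted p under 0.05, 3 were lower and 2 higher (8.12% and 8.32% of all genes). Ppbp, which encodes a platelet α-granule chemokine, fell 2.50-fold, from 6.91, 6.46 and 6.65 to 5.45, 5.38 and 5.24. Pf4, platelet factor 4, read 7.57, 8.21 and 7.80 against 7.16, 7.26 and 7.54 and did not pass, though the groups did not overlap (-0.54 log2 units, limma adjusted p = 0.0921). F13a1, which encodes the A subunit of factor XIII and is also made by monocytes, rose 6.87-fold, from 6.03 to 8.81.

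Of 24 signalling genes 5 fell and 2 rose (limma). At an unadjusted p under 0.05, 6 were lower and 3 higher (8.12% and 8.32% of all genes). Prkcq, protein kinase C θ, fell 2.67-fold, Lat, the adaptor of GPVI and T cell receptor signalling, 2.64-fold, and Fyb, an adaptor in integrin activation, 1.57-fold. Lcp2 (SLP-76) and Syk, the kinase downstream of GPVI and CLEC2, also fell (-0.63 and -0.51 log2 units, named outside the rule). Rasgrp2, the exchange factor that activates Rap1 in platelets, and Vav3, a guanine nucleotide exchange factor, rose 1.91-fold and 1.89-fold. These genes act in other blood cells too, and of 12 T and NK cell markers 2 fell and 0 rose (limma), with 4 lower and 0 higher at an unadjusted p under 0.05 (8.12% and 8.32% of all genes). Gzmb (granzyme B) was 21.9-fold lower and Trat1, which encodes an adaptor of the T cell receptor, was 5.89-fold lower. The mean level of those markers was 6.77 to 6.86 in the flox/flox arrays and 5.95 to 6.32 in the Mx1Cre arrays. Most of that shift came from Gzmb and Trat1: the list's median difference was -0.08 log2 units, and the mean difference of the other 10 was -0.08. Nkg7, the brightest marker, differed by -0.42.

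Of the 20 other platelet surface genes measured beside Cd9, 0 passed in either direction (limma), and at an unadjusted p under 0.05 8 were lower and 3 higher, Cd9 included (8.12% and 8.32% of all genes). They include the tetraspanins Cd63, Cd151, Cd81 and Cd82, at -0.29, -0.34, 0.15 and 0.23 log2 units. Of 24 genes of megakaryocyte maturation 3 fell and 2 rose (limma). At an unadjusted p under 0.05, 8 of these were lower and 2 higher (8.12% and 8.32% of all genes). Tuba8, an α-tubulin, fell 1.87-fold, Nfe2, a factor that platelet formation needs, 1.48-fold, and Plek (pleckstrin) 1.41-fold. Rab27a and Slc35d3, of secretory and dense granules, rose 1.43-fold and 1.42-fold. Gata1 read 7.82, 7.75 and 8.32 against 7.11, 7.66 and 7.65, without overlap, and did not pass (-0.49 log2 units, limma adjusted p = 0.191). Fli1, an ETS factor of megakaryocytes, differed by 0.12 log2 units, and Tubb1, the β-tubulin of platelets, by 0.01.

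**Figure D4:**
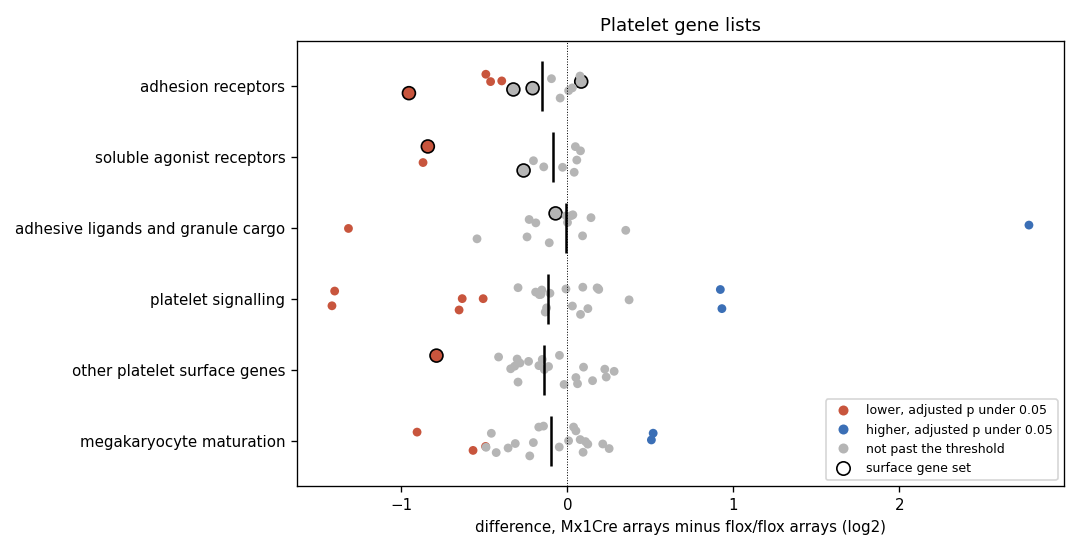
Difference in log2 expression, Mx1Cre arrays minus flox/flox arrays (horizontal axis), of the genes of 6 platelet lists, 1 point per gene, with black bars at list medians and black rings on the 8 surface genes. Red and blue mark adjusted p under 0.05, lower or higher. The lists hold 16 lower and 5 higher genes (2.28% and 2.63% of all genes), and the list medians run from -0.153 to -0.008.

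Marker lists of other cell types moved with the labels to unlike degrees. Median differences were 1.79 log2 units for monocyte and macrophage markers and 0.51 for mature granulocyte markers. Those of the mast cell and basophil, stem cell and endothelial lists were 0.04, -0.0003 and -0.06, against -0.01 over all genes. Over all genes 2.28% passed as lower and 2.63% as higher (limma). Of 9 erythroid markers 1 fell (Rhag, 1.81-fold), and all 9 differences were below 0, as were 53.4% of all genes. Their median was -0.28 log2 units, beside -0.29 for the 8 surface genes. Car1, the brightest, differed by -0.21, with list means of 7.73 to 8.04 in the flox/flox arrays and 7.51 to 7.78 in the Mx1Cre arrays. Of 11 stem cell markers 1 rose (Hlf, 1.89-fold), and Meis1, the brightest, differed by 0.10 log2 units, with means of 7.01 to 7.07 and 7.08 to 7.19. Of 9 mast cell and basophil markers 2 fell and 3 rose, with means of 7.12 to 7.21 and 7.30 to 7.67. Cpa3, the brightest, and Fcer1a, a chain of the IgE receptor, fell 1.75-fold and 3.37-fold. Mcpt8, a basophil protease, Hdc, the enzyme that makes histamine, and Ms4a2, the β chain of the IgE receptor, rose 6.81-fold, 2.91-fold and 2.43-fold. Of 10 monocyte and macrophage markers 9 rose, with means of 6.50 to 6.73 and 8.31 to 8.52. The genes that rose were Ly86, Ms4a6c (the brightest), Mpeg1, Csf1r, Ctss, Ccr2, Cd68, Cx3cr1 and Adgre1, by 3.83 log2 units for Ly86 down to 0.51 for Adgre1. Of 10 mature granulocyte markers 5 rose, with means of 5.49 to 5.63 and 6.40 to 6.84. The granulocyte genes that rose were S100a9, Cxcr2 (the brightest), S100a8, Ngp and Lcn2, by 2.88 log2 units for S100a9 down to 0.59 for Lcn2. The endothelial list's means were 6.59 to 6.63 and 6.46 to 6.66. On RMA arrays no gene reads 0, so no defining marker could be called absent, and the part of any of these cell types in the falls of Gp5, F2r and Cd9 was not tested.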

How the data were processed

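Values came from the authors' deposited table: log2 expression per probe set, made with RMA and affy per the submitters' processing notes, with versions not given in the sources used here. RMA corrects background, quantile normalizes and summarises probes on the log2 scale. Array medians were 6.43 to 6.55. Per the labels' protocols, 20 ng of total RNA was amplified before labelling. Depth does not apply to arrays, and their number limits the precision.

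Of 34760 probe sets 21640 had 1 gene symbol, 1321 several and 11799 none here; 21553 matched the mouse reference table by Entrez number. Where a gene had several, the one with the highest mean was used; each gene described had 1. The gene test was lmFit and eBayes of limma 3.58.1 (R 4.3.3) over 19937 genes, with Benjamini-Hochberg adjustment at 0.05, and was first tested on simulated data. Permutation tests used scipy 1.17.1. The members and lists were chosen with earlier results of these data known. Named were all members, Cebpa, up to 3 called genes each way per platelet list, selected partners, the called genes and the brightest of each marker list, and the 3 most like genes per called member. Neighbours on the chromosome, further members of complexes and families, genes of antigens that the sort excluded, and Itga2, Lcp2 and Syk were named outside that rule, after their values were seen. Replicate numbers were checked as pairs. Alternatives were a replicate block, leaving out arrays, centring, cyclic loess, filters on dim genes, probe set choice, other fit rows, an intensity trend, array weights and a threshold of 0.10; the fit on every probe set was chosen after seeing the data.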

Additional observations from a re-analysis of the deposited data

How the results depend on the processing

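Of 8 genes, 3 fell under every alternative tried other than these: without 1 array 2 to 3 fell, and with every probe set in the fit, added after seeing the data, 1 did (F2r). None rose under any. The median stayed between -0.34 and -0.27 log2 units, and no gene's difference changed sign. Of the platelet list genes 9 to 15 fell and 3 to 4 rose without 1 array, and 5 fell and 3 rose with every probe set in the fit. A threshold of 0.10 gave 19 and 7. Leaving out an array also lowers the power. The cause of the loss with every probe set was not tested.

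With the replicate number as a block 3 of the 8 genes fell, and 16 list genes fell and 4 rose. Deviations of same-numbered arrays correlated at 0.188, 0.0515 and 0.174 across genes, and those of arrays with unlike numbers at -0.245 to 0.124. Of 6 arrays, 5 were closest to their own number. With 1 same-numbered pair below 0.1, the numbers were not taken as pairs by the rule used. Whether they pair the arrays is not settled. With both filters on dim genes Clec1b was not tested. RMA understates differences of dim genes, and 3 arrays a group limit the precision.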
